A study of Homo sapiens with 9 samples.

Results

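Metallothioneins are small cysteine-rich proteins that bind zinc and copper, and this account follows 6 of their genes (MT1E, MT1F, MT1G, MT1M, MT1X and MT2A) together with MTF1, the transcription factor that senses zinc and switches metallothionein genes on. The 7 members were taken by name through their Entrez numbers, all 7 were among the 12798 rows of the count table, and all 7 passed the filter on low counts that left 11064 features for testing. HepG2, a liver cancer line, was the only cell type. The cells of all groups had been transduced with the lentiCRISPRv2 vector, which carries Cas9 and a guide RNA, and had been selected with puromycin. The 3 sgCtrl libraries carried the guide labelled sgAAVS168, which targets the AAVS1 site, and the sgKeap1-1 and sgKeap1-2 groups of 3 libraries each carried 1 of 2 guides against KEAP1, the adaptor that marks the transcription factor NRF2 for destruction. RNA was taken 48 h after seeding. No step of single-cell cloning is described for these cells, and nothing in the sources says whether the 3 libraries of a group came from separate cultures, so that p-values measure the spread between these libraries, which may be technical. The same 3 sgCtrl libraries stand behind both guides' comparisons.

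Zinc that enters the cytosol is bound by metallothioneins, is pumped out or into vesicles by SLC30 transporters and comes in through SLC39 transporters. When free zinc rises, MTF1 binds short metal response elements in the promoters of metallothionein genes. Copper, cadmium, oxidants and glucocorticoids also raise metallothionein transcription, and the liver is a main site of it. NRF2 acts through another short element, the antioxidant response element, on genes of glutathione and thioredoxin metabolism.

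The promoters of MT2A and MT1X are shown because they hold the elements through which MTF1 is known to act, and because these genes are the first and the last along chromosome 16 of the metallothionein genes in the table. The sequences come from RefSeq (GRCh38.p14, plus strand), are written 5′ to 3′ and cover the 250 bases before the transcription start. The capitals mark matches to the core of the metal response element on either strand, searched as TGCACNC and TGCGCNC. MT2A spans chr16:56608334-56608583 and MT1X spans chr16:56682220-56682469.
MT2A: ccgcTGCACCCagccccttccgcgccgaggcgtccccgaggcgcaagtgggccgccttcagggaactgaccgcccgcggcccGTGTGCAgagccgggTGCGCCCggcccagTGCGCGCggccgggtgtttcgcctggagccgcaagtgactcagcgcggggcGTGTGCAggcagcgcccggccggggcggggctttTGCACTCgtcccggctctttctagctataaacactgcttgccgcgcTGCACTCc
MT1X: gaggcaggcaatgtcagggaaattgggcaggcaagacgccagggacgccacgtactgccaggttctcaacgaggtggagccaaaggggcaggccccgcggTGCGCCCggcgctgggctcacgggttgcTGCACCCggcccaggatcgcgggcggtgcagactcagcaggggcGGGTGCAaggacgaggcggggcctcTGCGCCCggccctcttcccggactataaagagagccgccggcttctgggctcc

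MT2A had 7 such cores in the printed stretch and 8 when the 50 bases after the start were added, and MT1X had 4 in both. Among 35116 promoter windows of the same 300 bases, 29.6% held at least 1 core, 2.3% at least 3 and 0.162% at least 5. The antioxidant response element core, searched as TGACNNNGC on both strands, matched once in each of these windows and in 13.3% of all windows, and no match of one motif overlapped a match of the other. The window of MTF1 held neither motif. Among the members only MT1X, MT2A and MTF1 had an entry, and MT1E, MT1F, MT1G and MT1M did not. These matches are of letters only, since no binding was measured.

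The 6 metallothionein genes lie in a cluster on chromosome 16. On GRCh37 (GENCODE v44 lifted over) MT2A begins at 56642496 and MT1X ends at 56718108, a span of 75.6 kb in which MT1E, MT1M, MT1A, MT1F and MT1G follow MT2A in that order. MT1G is read from the minus strand and the others from the plus strand. MT1A, a member of the same family that was not chosen, was also in the table, as was MT1P3, a processed pseudogene on chromosome 20, so that 8 metallothionein features were counted in all. MTF1 stands apart on chromosome 1 (38275246 to 38325264, minus strand).

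Reads came from the 3′ ends of transcripts, where these genes are close copies of each other. The last 300 bases of the canonical transcripts of the 6 genes and MT1A matched at 69.1% to 83.4% of aligned positions. In that stretch, no window of 75 bases, the length sequenced, was shared with another gene for MT1E, MT1F, MT1M, MT2A or MTF1. For MT1G 9.7% and for MT1X 11.9% of windows were shared, in both cases with each other or with the pseudogene MT1XP1. After trimming to 50 bases the shared part would be 28.7% for MT1G, 30.7% for MT1X, 17.5% for MT1M, 15.5% for MT2A, 9.2% for MT1F, 2.0% for MT1E and 0% for MTF1. How reads that fit several genes were counted is not given in the sources used here, so the values of MT1G and MT1X in particular may hold some of each other's reads.

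Depth was 3011644 to 4725840 counted reads per library. Levels are given as normalized CPM (reads scaled to a common library size, with edgeR's TMM factors). Because each transcript yields reads from its end alone, CPM of genes of different length can be set beside each other. Log2 fold changes come from a quasi-likelihood fit in edgeR, p-values were adjusted over the 11064 features by the Benjamini-Hochberg method, a call means an adjusted p under 0.05, and SE is the standard error of the log2 fold change. Within groups, the count profile of replicate 2 stood farthest from the other libraries in sgCtrl and sgKeap1-1, and that of replicate 3 in sgKeap1-2.

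KEAP1 itself was at 63.3, 89.1 and 85.2 CPM in the sgCtrl libraries, 64.0, 62.5 and 53.3 with sgKeap1-1 and 81.8, 85.5 and 73.8 with sgKeap1-2. Neither guide changed it by a call (log2 fold change -0.40, SE 0.15, adjusted p = 0.211, and 0.02, SE 0.15, adjusted p = 0.952). Cas9 makes small edits, and reads from the 3′ end do not show whether the coding sequence was cut, so these values do not check the labels. Targets of NRF2 give another measure: of 9 reference genes tested, 7 rose with sgKeap1-1 and 8 with sgKeap1-2, where 2.8% and 5.96% of all features did. The median log2 fold changes of the 9 were 1.38 and 1.74. HMOX1, heme oxygenase, was not on this list, though the study counts heme metabolism among the processes of NRF2 targets. It was at 0.05 and -0.01 on the log2 scale and was not called. NQO1, a quinone reductase, went from a mean of 520 CPM to 1354 and 1736. GCLM, which sets the rate of glutathione synthesis with its partner GCLC, rose by 1.77 and 2.18 on the log2 scale.

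Metallothionein transcripts were lower in the cells with a KEAP1 guide. MT1E, MT1F, MT1G, MT1M and MT1X fell with both guides, by 1.75-fold to 3.53-fold in mean CPM with sgKeap1-1 and by 2.21-fold to 11.3-fold with sgKeap1-2. MT2A, the most abundant of them, was called lower with sgKeap1-2 (adjusted p = 0.0485), a call lost on leaving out any 1 of 6 libraries. With sgKeap1-1 the call of MT2A depended on the fit, being absent by group alone (adjusted p = 0.447) and present with replicate blocks (adjusted p = 0.0307). MT2A was not called different between the guides in either fit. MTF1 was called with neither guide. With sgKeap1-1, 5 of 7 members were called lower and none higher, where 1.4% of all features tested were called lower and 2.8% higher. With sgKeap1-2, 6 of 7 members were called lower and none higher, against 4.85% and 5.96% of all features. The median log2 fold change over the 7 members was -0.98 with sgKeap1-1 and -1.25 with sgKeap1-2, beside medians of 0.00 (-0.00062) and -0.01 over all features.

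**Figure D1:**
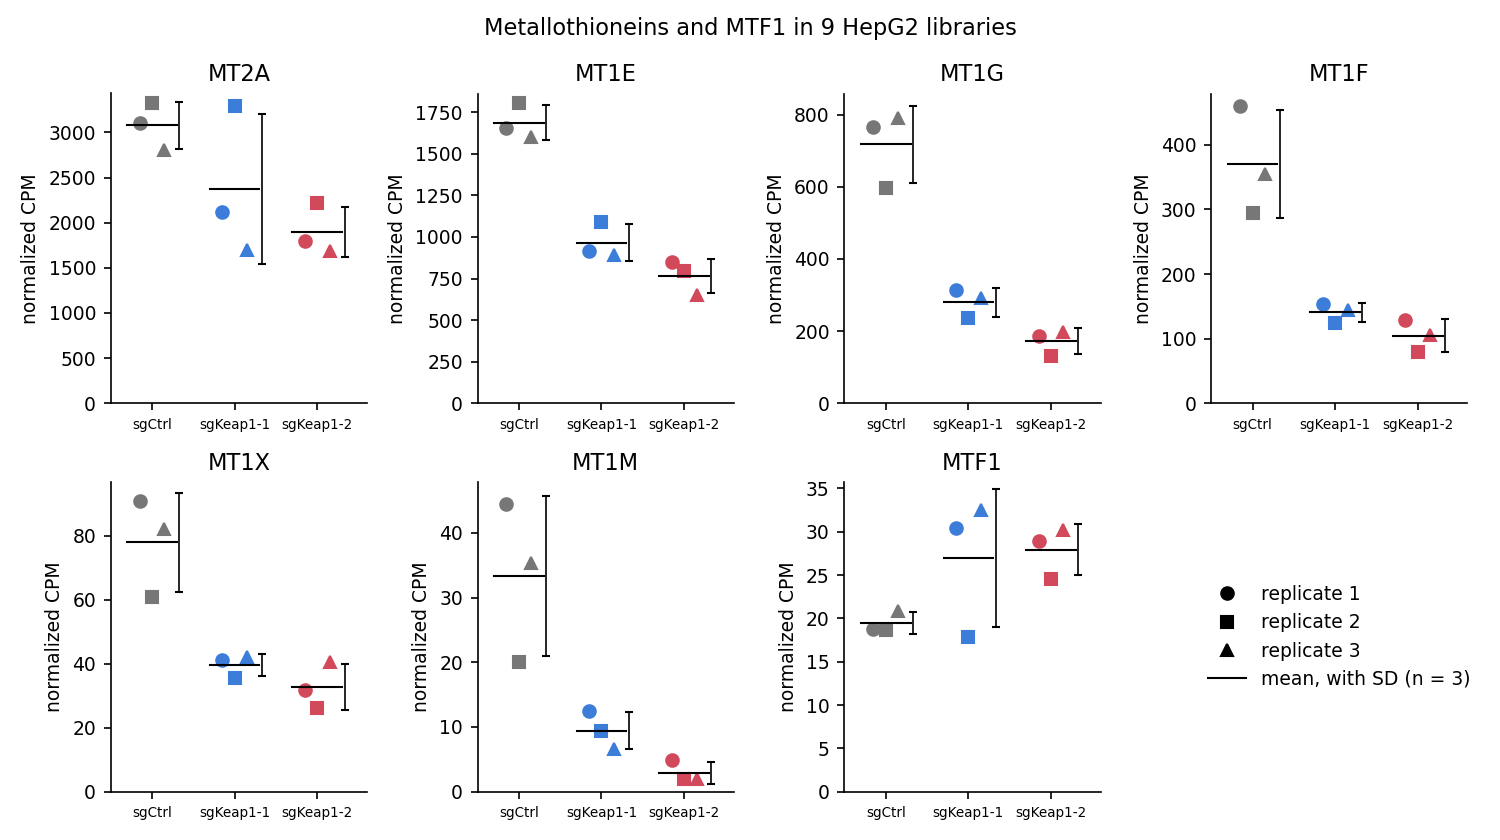
Normalized CPM (vertical axes, linear from 0) of each member in the 9 libraries, by group, with replicates 1 to 3 as circle, square and triangle, the group mean as a bar and its SD (n = 3). In the panels of MT1E, MT1G, MT1F, MT1X and MT1M every library with a KEAP1 guide lies below every sgCtrl library, as in 6.75% of all features tested, while the square of MT2A in sgKeap1-1 (3297 CPM) lies among the controls.

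MT1E was the most abundant of the MT1 genes. It was at 1657, 1806 and 1601 CPM in the sgCtrl libraries, at 915, 1092 and 892 with sgKeap1-1 and at 847, 794 and 653 with sgKeap1-2. The 3 groups did not overlap, and sgKeap1-2 lay below sgKeap1-1. The log2 fold change was -0.80 with sgKeap1-1 (SE 0.13, adjusted p = 0.00181) and -1.14 with sgKeap1-2 (SE 0.13, adjusted p = 4.83e-05).

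MT1G was at 766, 596 and 791 CPM in sgCtrl, at 313, 235 and 292 with sgKeap1-1 and at 188, 130 and 198 with sgKeap1-2. Its groups were also apart in the same order. It fell by 1.36 on the log2 scale with sgKeap1-1 (SE 0.17, adjusted p = 0.000247) and by 2.06 with sgKeap1-2 (SE 0.18, adjusted p = 3.70e-06). By mean CPM it ranked 165th of 11746 genes in sgCtrl, 615th with sgKeap1-1 and 1141st with sgKeap1-2.

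MT1F was at 461, 295 and 355 CPM in sgCtrl, at 154, 125 and 144 with sgKeap1-1 and at 129, 78.7 and 106 with sgKeap1-2. Both groups with a KEAP1 guide lay below the controls, and they overlapped each other. It fell by 1.39 on the log2 scale with sgKeap1-1 (SE 0.19, adjusted p = 0.000565) and by 1.83 with sgKeap1-2 (SE 0.19, adjusted p = 3.10e-05).

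MT1X was at 90.8, 60.8 and 82.2 CPM in sgCtrl, at 41.1, 35.5 and 42.0 with sgKeap1-1 and at 31.7, 26.1 and 40.4 with sgKeap1-2. The groups with a KEAP1 guide were again below the controls and overlapped each other. Its log2 fold change was -0.98 with sgKeap1-1 (SE 0.19, adjusted p = 0.00627) and -1.25 with sgKeap1-2 (SE 0.19, adjusted p = 0.00058). Without sgCtrl replicate 1 the value with sgKeap1-1 was -0.86 and missed the threshold (adjusted p = 0.0504).

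MT1M was the least abundant metallothionein among the members and moved the most of the 7 by fold. It was at 44.5, 20.1 and 35.4 CPM in sgCtrl, at 12.4, 9.36 and 6.57 with sgKeap1-1 and at 4.92, 1.95 and 1.94 with sgKeap1-2. The groups did not overlap. The values with sgKeap1-2 rest on 16, 8 and 8 reads, against 168, 59 and 127 in sgCtrl. It fell by 1.82 on the log2 scale with sgKeap1-1 (SE 0.34, adjusted p = 0.00626) and by 3.55 with sgKeap1-2 (SE 0.40, adjusted p = 5.80e-05).

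MT2A was at 3107, 3327 and 2803 CPM in sgCtrl, at 2122, 3297 and 1693 with sgKeap1-1 and at 1794, 2213 and 1682 with sgKeap1-2. With sgKeap1-1, replicate 2 was as high as the controls and the other libraries were below them. With sgKeap1-2 the mean was 1896 CPM, against 3079 CPM in sgCtrl. The log2 fold change was -0.38 with sgKeap1-1 (SE 0.20, adjusted p = 0.447) and -0.70 with sgKeap1-2 (SE 0.21, adjusted p = 0.0485). Single libraries moved the first value both ways, to -0.69 without sgKeap1-1 replicate 2, where it was called (adjusted p = 0.0218), and to -0.18 without sgKeap1-1 replicate 3 (adjusted p = 0.752). The call with sgKeap1-2 was lost on leaving out any 1 of sgCtrl replicates 1, 2 and 3, sgKeap1-1 replicate 1 or sgKeap1-2 replicates 1 and 3, with values of -0.76 to -0.62 and adjusted p up to 0.174.

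Libraries that carry the same replicate number also share a prefix in their names, the meaning of which the labels do not state. When edgeR was fitted with replicate numbers as blocks, MT2A was called lower with sgKeap1-1 as well (log2 fold change -0.42, SE 0.12, adjusted p = 0.0307), so that 6 of 7 members were, where 3.72% of all features were called lower in that fit. Within numbers, MT2A differed between sgKeap1-1 and sgCtrl by -0.55, -0.01 and -0.73 on the log2 scale for numbers 1, 2 and 3, and between sgKeap1-2 and sgCtrl by -0.79, -0.59 and -0.74. For MT1E, MT1F, MT1G, MT1M and MT1X, all 3 same-numbered differences were below 0 with either guide, and the one nearest to 0 was that of MT1E with sgKeap1-1 in number 2, at -0.73.

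MTF1 was a low-level transcript. It was at 18.8, 18.7 and 20.9 CPM in sgCtrl, at 30.4, 17.8 and 32.6 with sgKeap1-1 and at 28.9, 24.6 and 30.3 with sgKeap1-2. The group means were 19.5, 26.9 and 27.9 CPM in this order, and sgKeap1-1 replicate 2 was below all controls. Its log2 fold change was 0.46 with sgKeap1-1 (SE 0.22, adjusted p = 0.362) and 0.52 with sgKeap1-2 (SE 0.22, adjusted p = 0.175), and neither value was called. The former was 0.69 without sgKeap1-1 replicate 2 and 0.31 without sgKeap1-1 replicate 3, again not called (adjusted p = 0.0799 and 0.653). MTF1 had 55 to 125 reads per library. Its within-number differences were 0.68, -0.07 and 0.63 with sgKeap1-1 and 0.61, 0.39 and 0.52 with sgKeap1-2.

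**Figure D2:**
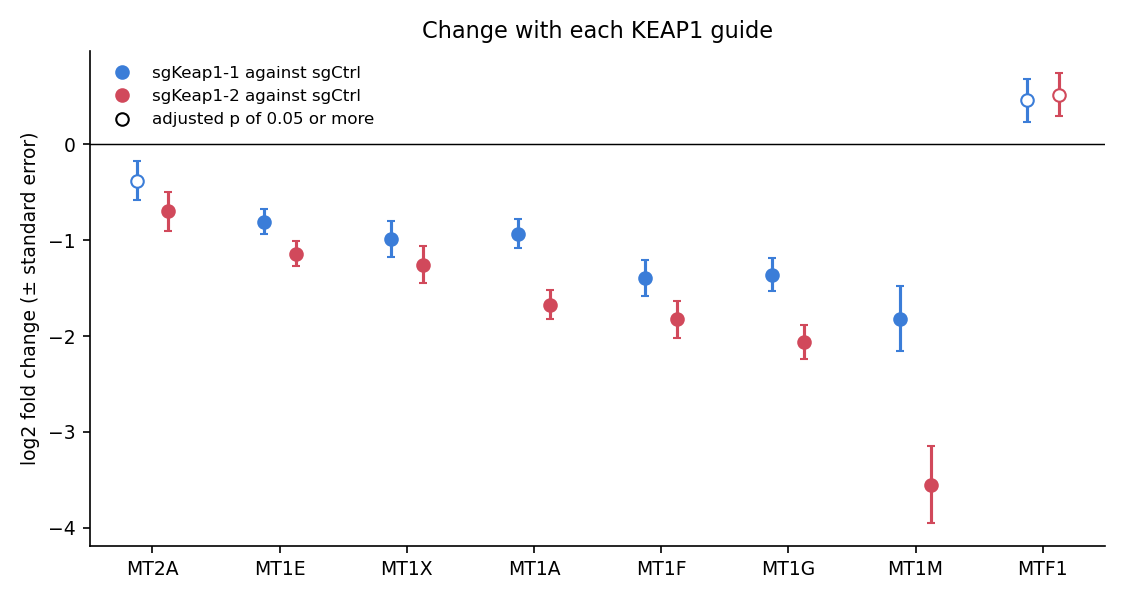
Log2 fold change (vertical axis) of the 7 members and MT1A with each KEAP1 guide against sgCtrl, with the standard error of the fit as bars, and open circles where the adjusted p was 0.05 or more. Points run from -0.38 for MT2A to -1.82 for MT1M with sgKeap1-1 and from -0.70 to -3.55 with sgKeap1-2, and MTF1 alone lies above 0.

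The remaining family rows were read beside the members. MT1A was at 75.4, 85.3 and 92.8 CPM in sgCtrl, at 49.9, 41.3 and 41.8 with sgKeap1-1 and at 28.9, 26.8 and 23.96 with sgKeap1-2. It fell by 0.93 on the log2 scale (SE 0.15, adjusted p = 0.00155) and by 1.67 (SE 0.15, adjusted p = 6.51e-06). The pseudogene MT1P3 was at 12.6 to 24.5 CPM in sgCtrl, 8.14 to 13.1 with sgKeap1-1 and 5.08 to 6.09 with sgKeap1-2. Its log2 fold change was -0.65 with sgKeap1-1 (adjusted p = 0.271) and -1.69 with sgKeap1-2 (adjusted p = 0.00184). The former ran from -0.85 to -0.37 on leaving out 1 library and was not called. Of the MT1P3 windows of 75 bases 14.6% were shared, with MT1E and a further pseudogene. At 50 bases 54.7% were shared, with MT1A, MT1E, MT1F, MT1G, MT1M and MT1X among the other genes.

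In the fit that set both KEAP1 guides against sgCtrl, 5 of 7 members were called, all lower, where 9.64% of features were called in either direction. The log2 fold changes were -0.96 for MT1E, -1.59 for MT1F, -1.67 for MT1G, -2.42 for MT1M and -1.11 for MT1X. MT2A was at -0.53 (SE 0.19, adjusted p = 0.101) and MTF1 at 0.49 (SE 0.19, adjusted p = 0.132). Without sgKeap1-1 replicate 2 both were called, at -0.70 (adjusted p = 0.00108) and 0.59 (adjusted p = 0.028). Replicate blocks also brought a call of MT2A (-0.56, SE 0.12, adjusted p = 0.00431), so that 6 members were called, where 14.5% of features were.

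The guides were also set against each other. All 6 metallothioneins had lower fitted values with sgKeap1-2 than with sgKeap1-1, but 0 of 7 members were called, where 0.0181% of all features (2 of 11064) were. At an unadjusted p under 0.05 the edgeR test had 4 of the 7 members (MT1E, MT1F, MT1G and MT1M) and 5.08% of all features. The log2 difference of sgKeap1-2 from sgKeap1-1 was -1.73 for MT1M (SE 0.43, adjusted p = 0.546) and -0.70 for MT1G (SE 0.17, adjusted p = 0.502). For MT1E it was -0.34 (SE 0.13, adjusted p = 0.915), for MT1F -0.43 (SE 0.19, adjusted p = 0.966), for MT2A -0.32 (SE 0.21, adjusted p = 0.986) and for MT1X -0.27 (SE 0.19, adjusted p = 0.986). The last 3 values moved with single libraries. MT2A was at -0.0030 without sgKeap1-1 replicate 2 and at -0.52 without sgKeap1-1 replicate 3, MT1X at -0.12 without sgKeap1-2 replicate 2 and at -0.46 without sgKeap1-2 replicate 3, and MT1F at -0.25 without sgKeap1-2 replicate 2 and at -0.61 without sgKeap1-2 replicate 1. The libraries of the 2 guides did not overlap for MT1E, MT1G and MT1M, where 4.93% of all features lay wholly lower with sgKeap1-2 in this way, and they overlapped for MT1F, MT1X, MT2A and MTF1. By DESeq2's Wald test 1 member was called, MT1M (log2 difference -1.73, adjusted p = 0.0404), where 0.19% of features were, and by limma-voom no member and 0% of features. With the replicate number as a block, MT1G (-0.71, SE 0.10, adjusted p = 0.00209) and MT1M (-1.74, SE 0.33, adjusted p = 0.0224) were called, where 0.235% of features were. The same-numbered differences between the guides were -0.74, -0.85 and -0.56 for MT1G, and lay between -2.0 and -1.25 for MT1M.

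Summed over the 8 features, metallothionein reads made up 0.581% to 0.625% of the counts in sgCtrl, 0.319% to 0.471% with sgKeap1-1 and 0.266% to 0.326% with sgKeap1-2. In CPM the sum was 6068 ± 245 (SD, n = 3) in sgCtrl, 3862 ± 889 with sgKeap1-1 and 3005 ± 284 with sgKeap1-2, log2 ratios of -0.65 and -1.01 to sgCtrl. In bulk RNA, fewer cells that make a transcript and less of it per cell cannot be told apart. The highest sum among the libraries with a KEAP1 guide, 4848 CPM in sgKeap1-1 replicate 2, was carried by MT2A.

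**Figure D3:**
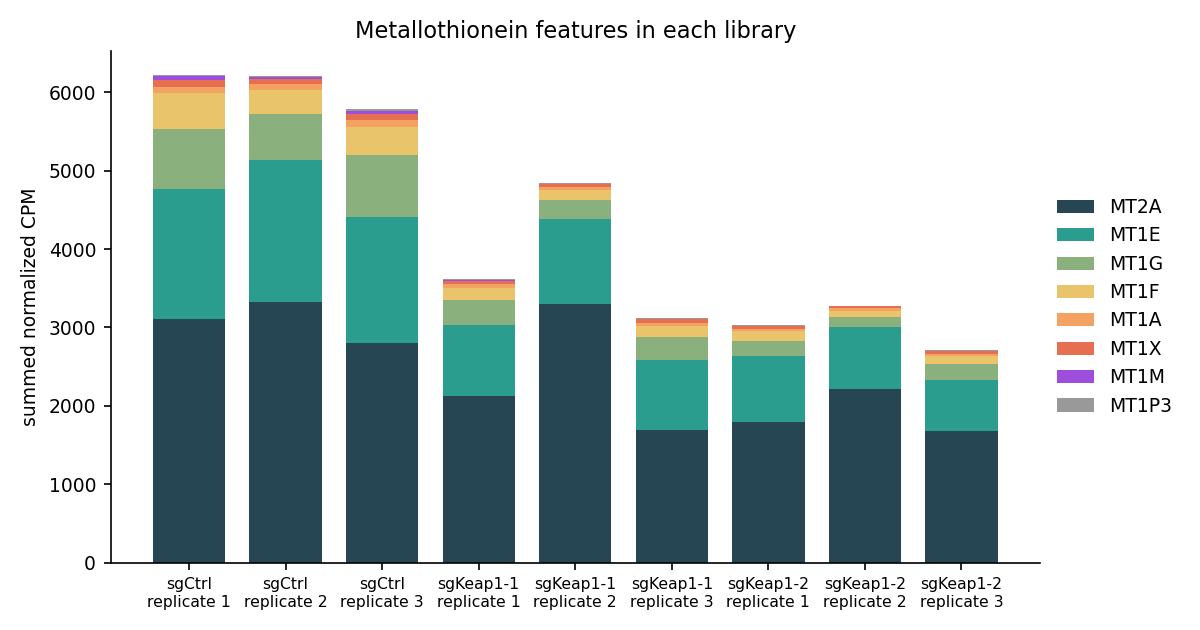
Stacked bars of normalized CPM (vertical axis, from 0) of the 8 metallothionein features in each of the 9 libraries, 1 colour per feature. The sgCtrl bars end between 5785 and 6218 CPM and those with a KEAP1 guide between 2710 and 4848, and MT2A takes a larger part of the latter.

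The make-up of the sum also differed. MT2A made up 50.7% ± 2.67 (SD, n = 3) of metallothionein reads in sgCtrl, 60.3% ± 7.02 with sgKeap1-1 and 62.9% ± 4.23 with sgKeap1-2. Every library with a KEAP1 guide (54.3% to 68.0%) had a larger MT2A share than every sgCtrl library (48.4% to 53.6%). The share of MT1G was 11.9% ± 2.07, 7.61% ± 2.42 and 5.82% ± 1.69 in the same order of groups. That of MT1E moved less, from 27.8% ± 1.24 to 25.5% ± 3.04 and 25.4% ± 2.19, and its ranges overlapped. These shares are descriptions without a test.

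Genes that flank the metallothionein row on chromosome 16 were read for comparison. Of 6 neighbours described, none was called with sgKeap1-1 and 1 was called lower with sgKeap1-2, where 4.85% of all features were. The median log2 fold changes of the neighbours were 0.00 (-0.0018) and -0.11. OGFOD1, BBS2 and NUP93, the nearest of them with NUDT21, lay between -0.21 and 0.16 with either guide. NUDT21, which takes part in cleavage of pre-mRNA at its 3′ end, was at -0.12 with sgKeap1-1 and -0.62 with sgKeap1-2 (SE 0.18, adjusted p = 0.0437). That call was lost without sgCtrl replicate 1, 2 or 3, sgKeap1-1 replicate 1 or 3, or sgKeap1-2 replicate 2 or 3, with adjusted p up to 0.12. The value was -0.41 without sgKeap1-2 replicate 3, and -0.66 to -0.59 in the others of these fits. HERPUD1 was at 0.35 and -0.19, and CETP, under 4 CPM on average in every group, at 1.33 and 1.46, none of them called.

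**Figure D4:**
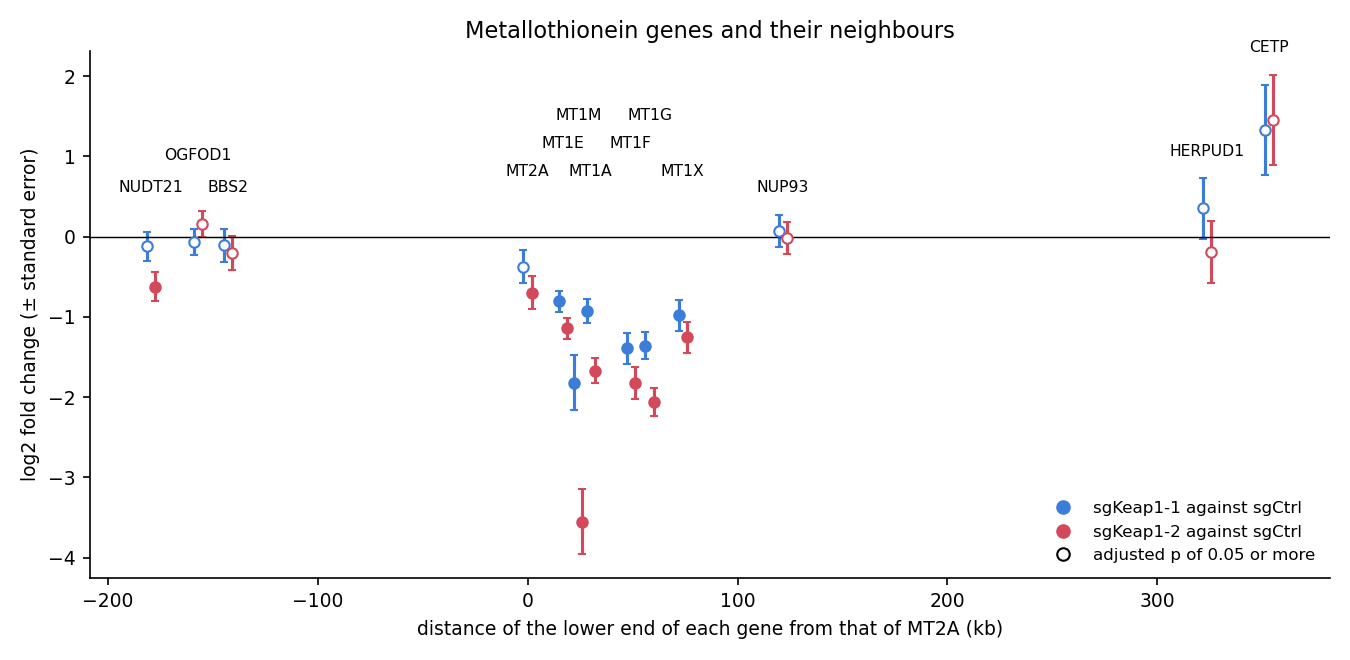
Log2 fold change with each guide (vertical axis, bars are standard errors of the fit, open circles have an adjusted p of 0.05 or more) against the distance in kb of the lower end of each gene from that of MT2A. The 7 metallothionein genes within 75.6 kb lie below 0 with both guides, and the neighbours from NUDT21 (-179.5 kb) to NUP93 (121.5 kb) lie between -0.21 and 0.16 except NUDT21 with sgKeap1-2.

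Zinc transporters were read from lists of the SLC30 and SLC39 families. Of 7 SLC30 exporters tested, 1 rose and 1 fell with each guide. Of all features, 2.8% rose and 1.4% fell with sgKeap1-1, and 5.96% rose and 4.85% fell with sgKeap1-2. SLC30A3, which loads zinc into vesicles, was at 9.79, 6.80 and 10.9 CPM in sgCtrl, at 180, 97.7 and 113 with sgKeap1-1 and at 216, 147 and 269 with sgKeap1-2. Its log2 fold change was 3.81 (SE 0.32, adjusted p = 3.55e-05) and 4.51 (SE 0.32, adjusted p = 4.59e-06), and no library with a KEAP1 guide came near a control. SLC30A10, known mainly as a manganese exporter, was at 21.4, 38.4 and 22.6 CPM in sgCtrl, at 4.87, 10.2 and 4.47 with sgKeap1-1 and at 2.46, 7.55 and 2.42 with sgKeap1-2. It fell by 2.04 on the log2 scale (SE 0.42, adjusted p = 0.0138) and by 2.68 (SE 0.45, adjusted p = 0.00183). Without sgKeap1-1 replicate 1 or 3 the former was -1.87 or -1.84 and was not called (adjusted p = 0.0814 and 0.0679). The latter was -3.46 without sgKeap1-2 replicate 2, and it kept its call on leaving out any 1 library (-3.46 to -2.38, adjusted p up to 0.0126).

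SLC30A1, the zinc exporter of the plasma membrane and, like the metallothioneins, a known target of MTF1, was at 53.2, 58.1 and 53.8 CPM in sgCtrl, at 47.9, 54.6 and 43.3 with sgKeap1-1 and at 54.4, 49.9 and 34.6 with sgKeap1-2. The groups overlapped for sgKeap1-1 and for sgKeap1-2, and the log2 fold changes were -0.18 (SE 0.17, adjusted p = 0.744) and -0.25 (SE 0.17, adjusted p = 0.433). On leaving out 1 library they ran from -0.27 to -0.099 and from -0.38 to -0.076, and neither was called. The RefSeq window of SLC30A1 held 2 cores of the metal response element, as did that of SLC30A3, and that of SLC30A10 none.

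Of 10 SLC39 importers tested, none was called with sgKeap1-1, and 1 rose with sgKeap1-2, where 5.96% of all features did. SLC39A10 was at 15.9, 21.1 and 12.5 CPM in sgCtrl and at 25.5, 32.6 and 25.9 with sgKeap1-2 (log2 fold change 0.77, SE 0.22, adjusted p = 0.0326), and that call was lost without sgCtrl replicate 1 or 3 or sgKeap1-2 replicate 1 or 2 (adjusted p up to 0.152). SLC39A14, an importer of zinc, iron and manganese in liver, was at 427, 447 and 433 CPM in sgCtrl, at 309, 404 and 292 with sgKeap1-1 and at 259, 328 and 124 with sgKeap1-2. All libraries with a KEAP1 guide were below the controls, as in 6.75% of all features tested. The log2 fold changes of -0.38 (SE 0.28, adjusted p = 0.628) and -0.88 (SE 0.29, adjusted p = 0.087) were not called by edgeR. With sgKeap1-2 limma-voom (-0.99, adjusted p = 0.0311), DESeq2 (-0.88, adjusted p = 0.0109) and edgeR with the replicate block (-0.96, adjusted p = 0.035) did call it. Without sgKeap1-2 replicate 2 or 3 the edgeR value was -1.18 or -0.57 and was called (adjusted p = 0.0178 and 0.0198). The median log2 fold changes of the importers were 0.03 and -0.06, and those of the exporters -0.13 and -0.22.

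**Figure D5:**
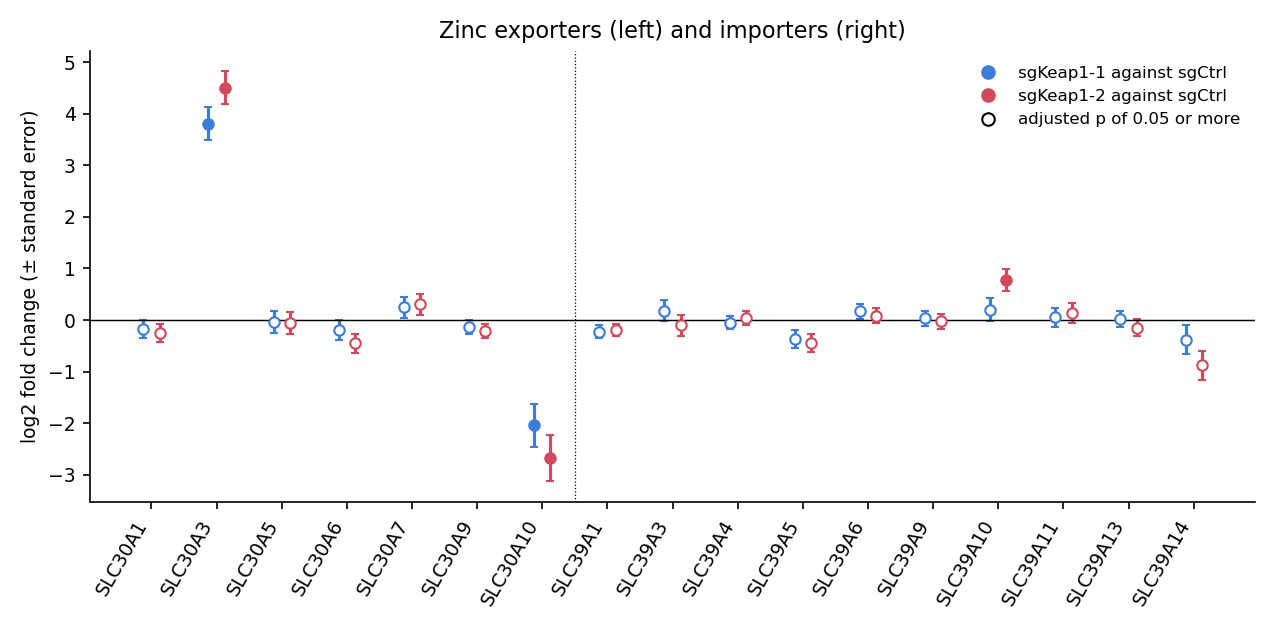
Log2 fold change (vertical axis, bars are standard errors of the fit) of the 7 SLC30 exporters and 10 SLC39 importers tested, with open circles where the adjusted p was 0.05 or more. SLC30A3 stands at 3.81 and 4.51 and SLC30A10 at -2.04 and -2.68, and the other transporters lie between -0.88 and 0.77.

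Copper, which metallothioneins also bind, has its own carriers. Of 12 copper-handling genes tested, none was called with sgKeap1-1 and 2 fell with sgKeap1-2, where 4.85% of all features did. The copper importer SLC31A1 was at -0.36 and -0.43 (adjusted p = 0.165 and 0.0457), and the latter call was lost on leaving out any 1 library but sgKeap1-2 replicate 3 (adjusted p up to 0.187). COX11, an assembly factor of cytochrome oxidase, was at -0.21 and -0.62 (adjusted p = 0.642 and 0.0281), with the call lost without sgCtrl replicate 1, 2 or 3 or sgKeap1-2 replicate 1 or 3 (adjusted p up to 0.11). CP, the copper-carrying plasma protein ceruloplasmin, was at 126, 249 and 109 CPM in sgCtrl, at 192, 449 and 205 with sgKeap1-1 and at 190, 334 and 181 with sgKeap1-2. Replicate 2 was the highest library of each group, and the groups overlapped. Its log2 fold changes of 0.81 (SE 0.46, adjusted p = 0.494) and 0.55 (SE 0.46, adjusted p = 0.551) were not called. They were as low as 0.30 without sgKeap1-1 replicate 2 and 0.21 without sgKeap1-2 replicate 2, and as high as 1.26 and 1.00 without sgCtrl replicate 2, again not called, whereas with the replicate block they were 0.79 (SE 0.11, adjusted p = 6.39e-05) and 0.58 (SE 0.11, adjusted p = 0.00098). In that fit 1 copper gene was called higher and none lower with sgKeap1-1, and 1 higher and 3 lower with sgKeap1-2. Of 11064 features, that fit called 977 with sgKeap1-1 and 1956 with sgKeap1-2, in either direction.

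Of 10 tested genes that metals or misfolded proteins induce, 1 rose with each guide, where 2.8% and 5.96% of all features did. The median log2 fold changes were 0.27 and 0.16. With replicate blocks 2 were called higher with sgKeap1-1, and 3 higher and 1 lower with sgKeap1-2. That fit called 977 and 1956 of 11064 features in either direction. The calls gained were GADD45A, a gene of the DNA damage response, with both guides (0.58 and 0.50, adjusted p = 0.00605 and 0.0112), and with sgKeap1-2 the chaperone gene DNAJB1 (0.47, adjusted p = 0.00977) and GADD45B (-0.78, adjusted p = 0.0346). HSPB1, a small heat shock protein, rose by 0.72 on the log2 scale with sgKeap1-1 (SE 0.14, adjusted p = 0.00767) and by 0.80 with sgKeap1-2 (SE 0.14, adjusted p = 0.00183). HMOX1, heme oxygenase, which cadmium and oxidants induce, was at 32.0, 42.1 and 39.0 CPM in sgCtrl, at 41.6, 30.7 and 44.9 with sgKeap1-1 and at 33.2, 29.0 and 49.6 with sgKeap1-2. Its groups overlapped, with log2 fold changes of 0.05 (SE 0.22, adjusted p = 0.957) and -0.01 (SE 0.22, adjusted p = 0.985).

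Glucocorticoids induce metallothioneins through their own receptor. Of 8 genes of that response tested, none was called with sgKeap1-1 and 1 fell with sgKeap1-2, where 4.85% of all features did. This was the kinase gene SGK1, at -0.73 (adjusted p = 0.268) and -1.06 (SE 0.31, adjusted p = 0.0461), whose call was lost without sgCtrl replicate 1 or 2, sgKeap1-1 replicate 1 or sgKeap1-2 replicate 1 or 3 (adjusted p up to 0.165). With replicate blocks it was called with sgKeap1-1 too (-0.74, adjusted p = 0.00994). The median log2 fold changes of the list were -0.01 and -0.09.

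Several transcripts of hepatocytes were lower in the same libraries as the metallothioneins. All 9 markers of this cell type on the list were detected. With sgKeap1-1 5 were called lower and with sgKeap1-2 6, where 1.4% and 4.85% of all features were. TTR was called higher with both, where 2.8% and 5.96% of all features were. HNF4A, called with sgKeap1-2 only (-0.56, adjusted p = 0.0126), lost that call without sgCtrl replicate 1 or 3 or sgKeap1-2 replicate 2 (adjusted p up to 0.0706). With replicate blocks 6 were called lower with sgKeap1-1 too, where 3.72% of all features were. The summed level of the 9 markers was 30252 to 37731 CPM in sgCtrl, 17364 to 21864 with sgKeap1-1 and 14263 to 15963 with sgKeap1-2. Albumin (ALB) was at -1.10 and -1.66 and alpha-fetoprotein (AFP) at -1.27 and -2.38, all 4 values called. Of the markers of other cells, 1 of 3 for leukocytes was in the table at 2.12 to 5.81 CPM and 2 of 3 for fibroblasts at a sum of 6.15 to 15.8 CPM, levels within the range of MT1M, and of the 3 for endothelium none had a row. The part of the hepatocyte programme in the metallothionein values was not tested.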

How the data were processed

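RNA of 9 HepG2 libraries was prepared with the QuantSeq 3′ kit and sequenced single-end. The authors deposited raw read counts per gene. Per the submitters' processing notes the tools were FastQC 0.72, cutadapt 1.16, STAR 2.7.5b, featureCounts 1.6.3 and limma 3.40.6. The study's methods name GRCh37 and the labels hg38, while annotation, strand and multiread settings are not given in the sources used here.

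Rows without an Entrez number (1052 of 12798, 1.34% of counts) were left out of library sizes and tests. The table had 0 sample columns beyond the 9 libraries. From the counts, edgeR 4.0.16 (R 4.3.3) was run with filterByExpr, TMM scaling, group as the only factor in all 9 libraries and a robust quasi-likelihood fit, and both guides together were set against sgCtrl in a separate fit of 2 groups. The SE is the log2 fold change divided by the root of F. The self-test on simulated counts was passed. Passing it asked only for the right sign of recovered changes and a minimum number of them. The simulated counts held no effect of replicate number, so the test does not bear on that. No 2 libraries of a group agreed within sampling noise. Deviations of same-numbered libraries from their group means correlated at 0.16 to 0.38 between sgKeap1-1 and sgCtrl (3 of 3 pairs above 0.1), and 1 of 3 pairs was below 0.1 in each other comparison. Depth limits precision most for genes of few reads, such as MT1M.

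The named genes were the members, KEAP1, neighbours of the cluster, genes of the lists called in the fit of both guides (up to 25) and the 5 genes nearest in pattern by each of 2 measures. MT1P3, SLC30A1, SLC39A10, SLC39A14, COX11, CP, GADD45A, GADD45B, DNAJB1, HNF4A, HMOX1, ALB, AFP and TTR were chosen after their values were seen. Members and lists were chosen with earlier results of these data known. Alternatives were the replicate block, DESeq2 size factors, no scaling, limma-voom (limma 3.58.1), DESeq2 1.42.0, other filters (no filter beyond 1 count, or 10 counts in all libraries), a fit of the 2 groups of a comparison alone, each library left out, and, chosen after seeing the data, rows without an Entrez number kept and the 3 libraries of replicate 2 left out. Transcript ends and positions were read from the GRCh37 reference, and promoters from RefSeq windows of 250 bases before to 50 after the start. Protein identity was not analysed here, and 2 genes of the lists are not reported here.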

Additional observations from a re-analysis of the deposited data

How the results depend on the processing

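Each of MT1E, MT1F, MT1G and MT1M stayed lower and called with either guide in all alternatives that kept it, and MT1X in all but 1, while a minimum of 10 counts in every library removed MT1M. With the replicate block, features called were 977 for sgKeap1-1, 1956 for sgKeap1-2, 26 between guides and 1609 for both guides, in place of 465, 1196, 2 and 1067. The block called 2 members between the guides and MT2A with sgKeap1-1 and with both guides, as given above, and with sgKeap1-1 also CP, GADD45A, SGK1 and HNF4A (adjusted p = 0.0121), among others. Same-numbered libraries correlated at 0.23 on average over 9 pairs (-0.01 to 0.52, 7 above 0.1) and differently numbered ones at -0.12 over 18, and 7 of 9 libraries correlated best with their own number. The negative mean of differently numbered pairs is largely set by the first value, since deviations from a group mean cancel out within each group. The same-numbered correlations are only a hint of pairing from the data, since the labels do not state what a number marks. The fits reported first are without the block in every comparison, also between sgKeap1-1 and sgCtrl, where 3 of 3 pairs were above 0.1. Between guides, limma-voom, at least 10 counts in every library and only the groups compared each called 0 features, and DESeq2 called 19, with 1 member. Leaving out 1 library gave 278 to 688 features for sgKeap1-1, 764 to 1291 for sgKeap1-2, 0 to 2 between guides and 607 to 1236 for both guides, and 4 to 6, 5 to 6, 0 and 5 to 7 member calls. MT2A with sgKeap1-2 also lost its call with DESeq2 size factors (adjusted p = 0.0508) and with at least 10 counts in every library (0.0582). Without the 3 libraries of replicate 2, MT2A was called with sgKeap1-1 (-0.64, adjusted p = 0.023). Some values near 0 changed sign. MTF1 between guides was -0.07 without replicate 2 and -0.17 to 0.21 with 1 library left out. HMOX1 with 1 library left out was -0.060 to 0.20, -0.28 to 0.16 and -0.087 to 0.10 in the 3 comparisons with sgCtrl. Without replicate 2 HMOX1 turned to 0.24 with sgKeap1-2, and it kept its sign at 0.28 with sgKeap1-1 and 0.26 with both guides. With 1 library left out KEAP1 with sgKeap1-2 was -0.12 to 0.11, and GADD45B was -0.51 to 0.35 with sgKeap1-1 and -0.67 to 0.050 with both guides. The log2 ratio of the summed level ranged over -0.85 to -0.52 and -1.07 to -0.94 on leaving out 1 library. The cause of these differences was not tested.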

Other observations

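Among 9876 other features with at least 5 CPM on average, the log2 CPM of APOH, a plasma lipoprotein-binding protein made by liver, followed the log2 summed metallothionein level most closely over the 9 libraries (Pearson's r = 0.986), and GRTP1 (0.981), CIDEB (0.970), RHOU (0.969) and NFATC3 (0.967) came next. APOH had a mean of 2455 CPM in sgCtrl, 1590 with sgKeap1-1 and 1348 with sgKeap1-2. CIDEB, which takes part in loading of lipoproteins in the liver, went from 159 CPM to 87.0 and 64.7. These coefficients are descriptions: the points share library depth and fall into 3 groups, so that a gene lower with both guides can score high. After the group means were taken off, another set of genes came first, with TOMM40L at 0.993, ATF1 at 0.989, DNTTIP2 at 0.988, RAB4A at 0.975 and SHH at 0.964, and none of them was among the first 5 by the former measure. These too are descriptions, being the highest of 9876 coefficients, each over 9 values less 3 group means. In so wide a search over so few values, some coefficients come out high without any tie between the genes.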
